A study of Chlamydomonas reinhardtii with 31 samples.

Results

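The starchless mutant sta6 of the green alga Chlamydomonas reinhardtii was compared with 3 rescued strains 4 h after nitrogen was withdrawn. The tested libraries were sta6 (CC-4348) of a first library set and sta6 (CC-4348) of a second library set. They were set against STA6-C2 (CC-4565), STA6-C4 (CC-4566) and STA6-C6 (CC-4567), independent STA6 strains of the second set. All cultures had been grown in TAP, washed in TAP lacking ammonium chloride and moved to that medium for 4 h. These were 5 of the 31 samples of the series, which also holds CC-4349, labelled wild type, and other times up to 48 h. Each rescued strain is a separate line with 1 library at 4 h, and no rescued strain was in the first set. Genes were kept where both sta6 libraries lay on the same side of all 3 rescued libraries on log2(FPKM + 1), where FPKM is a read number divided by transcript length and library depth. Of 14299 genes with at least 1 FPKM in at least 2 of the 5 libraries, 6285 (43.95%) met this rule, and 3002 of the 17301 listed genes did not pass the filter on low values.

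STA6 encodes a subunit of ADP-glucose pyrophosphorylase, the enzyme that makes the sugar donor for starch. Algae deprived of nitrogen stop dividing, break down part of their photosynthetic machinery, and store carbon as starch and triacylglycerol. A mutant without this enzyme cannot take the starch route, and rescued strains carry a working copy again. TAP medium holds acetate, so the cells can take up carbon from the medium as well as fix it. Genes are named below by the IDs of the deposited table, since neither it nor the reference table used here pairs them with gene names or functions. For the same reason the STA6 gene was not looked up by name.

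The 4 h libraries were closely alike across genes. The repeat columns of first-set sta6 differed by a median of 0.216 on the log2 scale, and the averaged first-set library differed from second-set sta6 by 0.227. Pairs of rescued strains differed by 0.141 to 0.181. From the rescued mean, first-set sta6 differed by 0.304 and second-set sta6 by 0.197. First-set sta6 lay farther from that mean than second-set sta6 in 9333 of the 14299 genes tested. The reads recovered from the values, in units of 1e+06, numbered 22.7 in first-set sta6 over both columns, 7.86 in second-set sta6 and 8.06 to 8.98 in the rescued strains. At 0.5 h first-set sta6 stood farther apart, with a median difference of 0.641 to second-set sta6 and 0.734 to the rescued mean. Rescued pairs differed by 0.147 to 0.173 at 0.5 h. Tests at 0.5 h are therefore given with and without first-set sta6. No label ties the samples of a strain to separate cultures, so the p-values below measure only the spread between these samples. FPKM values are shares of a library, and RNA per cell was not measured. First-set CC-4349 values were not, for all genes, whole multiples of the value of a single read in the other columns. Their scale per gene may therefore differ, so their levels are not directly comparable with the other libraries.

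By limma, 539 genes were higher and 410 lower in sta6 than in the rescued strains at 4 h, with Benjamini-Hochberg adjustment at 0.05. These made up 3.77% and 2.87% of all genes tested, and 3636 genes had an unadjusted p below 0.05. The groups overlapped in 0 of the 949 called genes. Whatever the test, both sta6 libraries lay above all rescued libraries in 3443 genes (24.1%) and below them in 2842 genes (19.9%). Most of these separations were narrow. The gap between the nearest libraries of the groups had a median of 0.17 on the log2 scale for genes higher in sta6 and 0.15 for genes lower in sta6. It was over 1 in 74 higher and 111 lower genes, and over 2 in 18 higher and 30 lower genes.

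The rule has a hard edge. Cre17.g734000.t1.1 lay just inside it, with 7.67 and 6.33 FPKM in first-set and second-set sta6, against 8.17, 7.67 and 9.12 FPKM in STA6-C2, STA6-C4 and STA6-C6. Cre13.g599700.t1.2 lay just outside it, with 3.01 and 3.08 FPKM in sta6, against 4.27, 3.08 and 3.66 FPKM in the rescued strains. The gap was at most 0.1 on the log2 scale in 1147 of the 3443 genes higher in sta6 and in 1070 of the 2842 genes lower in sta6.

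**Figure D1:**
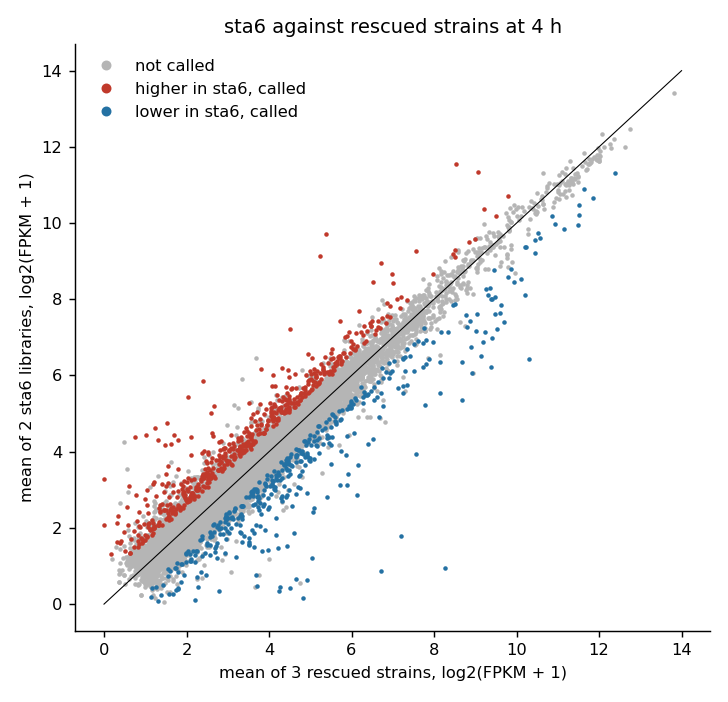
Each point is a gene at 4 h, with the mean of 2 sta6 libraries on the vertical axis and the mean of 3 rescued strains on the horizontal axis, both in log2(FPKM + 1). The 539 genes called higher lie above the line of equal levels and the 410 called lower lie below it.

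The called genes spanned a wide range of sizes. The log2 difference, sta6 minus rescued, had a median of 0.83 in the genes called higher and -0.97 in those called lower, against 0.02 over all genes tested. It exceeded 1 in size in 174 of 539 higher genes and 194 of 410 lower genes. It exceeded 3 in 11 higher and 16 lower genes. The called genes were not low ones as a group, with a median level of 12.8 FPKM in the higher list and 17.5 FPKM in the lower list, beside 7.87 FPKM for all genes tested. Reads were recovered for 533 higher and 408 lower called genes, of which 1 higher and 2 lower had at most 10 reads in every column of the comparison.

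By the choice of the genes, both sta6 libraries lie on the called side of the rescued strains. As a description, the median distance to the rescued mean was 0.90 in first-set sta6 and 0.77 in second-set sta6 among the 539 higher genes. Among the 410 lower genes it was -1.02 in first-set sta6 and -0.92 in second-set sta6.

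The number of calls rested strongly on single libraries. A group left with 1 library was assumed to vary like the other group. With second-set sta6 alone against the rescued strains, the only comparison within 1 library set, limma called 142 higher and 158 lower genes. With first-set sta6 alone it called 856 higher and 899 lower genes. It called 208 higher and 238 lower without STA6-C2, 188 and 170 without STA6-C4, and 84 and 88 without STA6-C6. First-set sta6 differs from the rescued strains in library set as well as in strain, and these cannot be told apart in that library.

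The gene with the widest gap of all was Cre03.g188250.t1.1, which was almost silent in sta6. It had 0.758 FPKM (59 reads) and 1.09 FPKM (31 reads) in first-set and second-set sta6, against 466, 259 and 234 FPKM in STA6-C2, STA6-C4 and STA6-C6. STA6-C2 was the highest of the rescued strains, and the groups did not come near each other. The log2 difference was -7.32 ± 0.298 (SE) with a limma adjusted p of 0.000871, and second-set sta6 alone gave -7.19 with an adjusted p of 0.00610. CC-4349 had 276 FPKM in the second set and 218 FPKM in the first set at 4 h. First-set sta6 had 0.516 FPKM before nitrogen was withdrawn, at 0 h.

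Cre04.g223100.t1.1 was the other lower gene taken by the rule for named genes. It had 0.552 FPKM (24 reads) and 1.12 FPKM (16 reads) in sta6, against 49.1, 147 and 152 FPKM in the rescued strains. STA6-C2 was here the lowest rescued strain, yet it stayed far above both sta6 libraries. The log2 difference was -5.85 ± 0.527 (SE) with a limma adjusted p of 0.00727. Second-set sta6 alone gave -5.62 with an adjusted p of 0.0724, which misses the threshold, and first-set sta6 alone gave -6.07 with an adjusted p of 0.0335. Second-set CC-4349 had 185 FPKM and first-set CC-4349 had 760 FPKM at 4 h.

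Among the higher genes, Cre03.g180750.t1.1 had 843 and 828 FPKM in first-set and second-set sta6, against 39.8, 28.0 and 59.7 FPKM in the rescued strains. The sta6 libraries were close to each other, which the choice of genes by a wide gap favours. The log2 difference was 4.33 ± 0.289 (SE) with a limma adjusted p of 0.00164, and 4.32 with an adjusted p of 0.0232 for second-set sta6 alone. CC-4349 had 15.3 FPKM in the second set, below every rescued strain. First-set CC-4349, whose scale per gene may differ, had 267 FPKM.

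Cre02.g081050.t1.1 had 614 and 522 FPKM in sta6, against 37.1, 34.8 and 38.6 FPKM in the rescued strains. The rescued strains were nearly equal. CC-4349 had 32.0 FPKM in the second set, below them. First-set CC-4349, on its possibly different scale, had 108 FPKM. The log2 difference was 3.91 ± 0.126 (SE) with a limma adjusted p of 0.000151. Second-set sta6 alone gave 3.79 with an adjusted p of 0.000496.

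**Figure D2:**
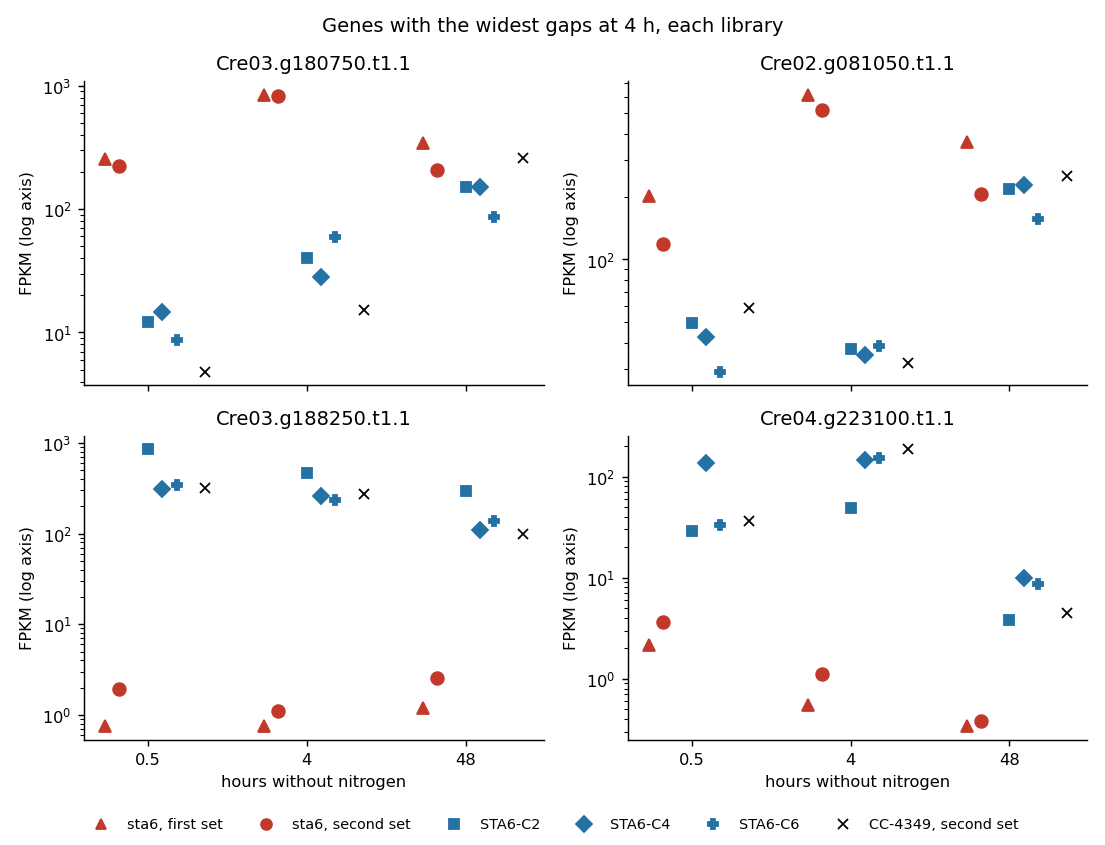
FPKM on a log axis for the 4 named genes at 0.5, 4 and 48 h, 1 point per library, with sta6 to the left of the rescued strains and CC-4349 of the second set as a cross. At 4 h the upper 2 genes reach 522 to 843 FPKM in sta6 and stay below 60 FPKM in the rescued strains, and the lower 2 genes show the opposite order.

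CC-4349 took no part in choosing the genes, and its position differed between the library sets. For first-set CC-4349 this cannot be told apart from its possibly different scale per gene. Second-set CC-4349 at 4 h was nearer to the rescued mean than to the sta6 mean in 429 of the 539 higher genes (79.6%) and in 329 of the 410 lower genes (80.2%). Over all genes tested this share was 59.8%. First-set CC-4349 at 4 h, a comparison added after seeing the data, was nearer to the rescued mean in 245 of the higher genes (45.5%) and 230 of the lower genes (56.1%), beside 47.6% of all genes tested. The 2 CC-4349 libraries differed by a median of 0.539 on the log2 scale. Second-set CC-4349 and the rescued strains share the second library set, and second-set sta6 is 1 of the libraries behind the sta6 mean.

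The 4 h genes were next read at 0.5 h and 48 h, in libraries that did not choose them. At 0.5 h, both sta6 libraries lay above all rescued strains in 199 of the 539 higher genes (36.9%), beside 20.4% of all genes tested. They lay below all rescued strains in 199 of the 410 lower genes (48.5%), beside 26.6% of all genes tested. The opposite order was found in 43 of the higher genes (7.98%) and 28 of the lower genes (6.83%). Without first-set sta6, second-set sta6 lay above the rescued mean in 84.0% of the higher genes (54.1% of all genes tested) and below it in 81.2% of the lower genes (45.9% of all). First-set sta6 at 0.5 h lay above that mean in 51.4% of the higher genes (37.7% of all) and below it in 64.9% of the lower genes (62.3% of all).

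At 48 h the median log2 difference of the 539 higher genes was 0.00, beside -0.05 over all genes tested. Both sta6 libraries lay above all rescued strains in 118 of them (21.9%, beside 11.6% of all genes tested) and below in 88 (16.3%). Of the 410 lower genes, 164 (40.0%) were below all rescued strains, beside 20.9% of all genes tested, and 64 (15.6%) above. First-set sta6 lay above the rescued mean in 68.5% of the higher genes, against 57.2% of all genes tested. Second-set sta6 did so in 36.7% of the higher genes, against 28.9% of all. In the lower genes the library sets parted at 48 h. First-set sta6 lay below the rescued mean in 71.0% of the lower genes, against 42.6% of all genes tested, while second-set sta6 did so in 61.5% of them, against 70.9% of all. Scaling moved the split over all genes at 48 h: among genes tested at that time, 1324 were higher and 3060 lower without overlap as deposited, and 2064 were higher and 1952 lower with equal medians.

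Few genes kept 1 side throughout. Of the 539 higher genes, 36 (6.68%) were also higher without overlap at both 0.5 h and 48 h, beside 2.01% of all genes tested. Of the 410 lower genes, 78 (19.0%) were lower at both, beside 6.59% of all. Cre03.g188250.t1.1 was among the lower ones, with 0.752 and 1.94 FPKM in sta6 against 845, 312 and 339 FPKM for STA6-C2, STA6-C4 and STA6-C6 at 0.5 h. Its 48 h levels were 1.20 and 2.55 FPKM in sta6 against 293, 108 and 138 FPKM in the rescued strains. Its log2 difference was -7.62 at 0.5 h (limma adjusted p = 0.0277) and -5.88 at 48 h (0.0322). Without first-set sta6 it was -7.25 at 0.5 h (0.0315) and -5.54 at 48 h (0.106).

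With both sta6 libraries, tests within the other times called far fewer genes than at 4 h. At 0.5 h this did not hold with either sta6 library alone, and at 48 h it did not hold with first-set sta6 alone. At 0.5 h limma called 5 genes (0.0354% of those tested), 2 higher and 3 lower, with 3138 at an unadjusted p below 0.05. At 48 h it called 23 (0.165%), 15 higher and 8 lower, with 1781 at an unadjusted p below 0.05. Of the 0.5 h calls, 3 were called the same way at 4 h, and of the 48 h calls, 12 were. Without first-set sta6, limma called 1121 genes at 0.5 h and 130 at 48 h. Without second-set sta6, it called 8709 genes at 0.5 h and 2019 at 48 h. Leaving out STA6-C4 or STA6-C6 left 1 and 0 calls at 48 h, the 0 with 867 at an unadjusted p below 0.05, and leaving out any rescued strain left 0 calls at 0.5 h, with 1245 to 1537 at an unadjusted p below 0.05.

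Of the 0.5 h calls, Cre05.g232400.t1.1 rests on single reads. It was listed at 0 FPKM in both sta6 libraries, against 85.8, 51.9 and 35.8 FPKM in the rescued strains, and each of those 3 values is 1 read. At 4 h second-set sta6 had 194 FPKM from 2 reads and the rescued strains were listed at 0. The values are high because FPKM divides by length, and no difference can be read from such counts. With voom, a limma method that weights recovered reads by their precision, 0 genes were called at 0.5 h, with 3681 at an unadjusted p below 0.05.

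**Figure D3:**
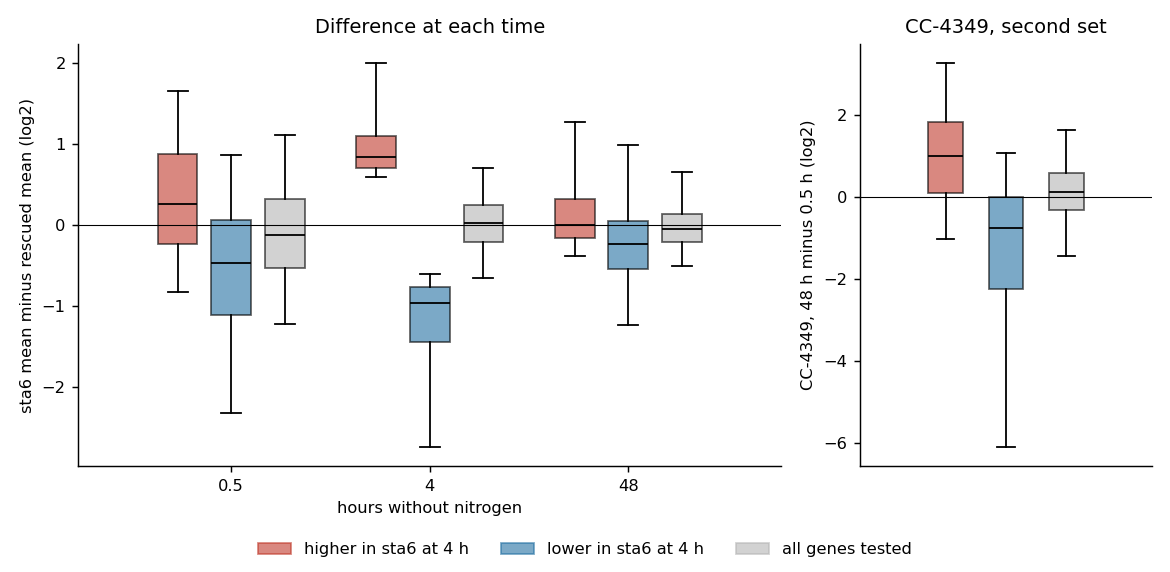
Left, the sta6 mean minus the rescued mean (log2) at 0.5, 4 and 48 h for genes higher in sta6 at 4 h, genes lower in sta6 at 4 h and all genes tested. Right, the change of CC-4349 of the second set, 48 h minus 0.5 h (log2), for the same lists. Boxes span the quartiles with the median as a line, and whiskers reach the 5th and 95th percentiles. The lists lie apart at 4 h by their choice, and at 48 h the higher list has a median of 0.00.

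Whether the sta6 minus rescued difference itself changed with time was tested in 1 limma fit over the 15 sta6 and rescued libraries of the 3 times. Between 48 h and 4 h it changed in 98 genes (0.685% of those tested). The change was positive, towards higher in sta6 at 48 h, in 70 genes and negative in 28. Of the 98, 81 had been called at 4 h, from libraries that enter both tests. Among these, 56 were lower in sta6 at 4 h with a positive change, and 39 of the 56 were higher in sta6 without overlap at 48 h, beside 11.6% of all genes tested. A further 24 were higher in sta6 at 4 h with a negative change, and 8 of the 24 were lower in sta6 without overlap at 48 h, beside 20.9% of all genes tested. The 48 h libraries entered the choice of these genes, so nothing is read from these counts. Leaving out 1 rescued strain left 19 calls without STA6-C2, 16 without STA6-C4 and 21 without STA6-C6. The count was 282 without first-set sta6 and 2287 without second-set sta6.

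The same libraries chose these genes, so their changes are given as a description only. In the 56 genes the median change, 48 h minus 4 h, was 0.57 in sta6 and -1.95 in the rescued strains on the log2 scale. The sta6 mean was higher at 48 h than at 4 h in 36 of the 56, and the rescued mean in 1 of the 56. In the 24 genes the median change was -0.33 in sta6 and 1.32 in the rescued strains. The sta6 mean was higher at 48 h in 5 of the 24, and the rescued mean in 23 of the 24.

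Cre14.g625650.t1.1, the gene with the largest positive change, was chosen after its values were seen. At 0.5 h it had 13.2 and 4.44 FPKM in sta6 against 11.2, 9.30 and 19.5 FPKM in rescued strains. At 4 h it had 0.531 FPKM (18 reads) and 0.594 FPKM (7 reads) in sta6 against 28.6, 40.1 and 22.0 FPKM in rescued strains. At 48 h the order was turned round, with 41.0 and 45.8 FPKM in sta6 against 7.36, 3.80 and 2.91 FPKM in the rescued strains. The log2 difference was -4.28 at 4 h (limma adjusted p = 0.000969) and 3.04 at 48 h (0.0610), and it changed by 7.32 ± 0.604 (SE), with an adjusted p of 0.000356. Second-set CC-4349 had levels of 152, 77.4 and 4.62 FPKM over the 3 times, and first-set CC-4349 had 1.14, 3.16 and 2.99 FPKM.

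Cre06.g282800.t1.1, likewise chosen after its values were seen, also changed order between 4 h and 48 h, at a higher level. At 0.5 h it already had 34.4 and 103 FPKM in sta6, against 774, 613 and 1018 FPKM in rescued strains. At 4 h it had 53.1 and 139 FPKM in sta6 against 1198, 1341 and 1232 FPKM in rescued strains. At 48 h it had 665 and 833 FPKM in sta6 against 276, 110 and 156 FPKM in the rescued strains. The groups did not overlap at any of these times, and their order was reversed at 48 h. The log2 difference was called at 4 h, at -3.85 (limma adjusted p = 0.00647). It was not called at 0.5 h, at -3.69 (0.102), or at 48 h, at 2.14 (0.179). The change of the log2 difference was 5.99 ± 0.685 (SE) with a limma adjusted p of 0.00161. Before nitrogen was withdrawn, first-set sta6 had 1013 FPKM, above its levels at 0.5 h and 4 h. First-set CC-4349 had 108, 29.5 and 38.2 FPKM at the 3 times, and second-set CC-4349 had 3113, 2050 and 63.3 FPKM.

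Cre07.g338450.t1.2, also chosen after its values were seen, differed between the groups at 4 h with 5.35 and 7.25 FPKM in sta6 against 65.4, 85.7 and 58.5 FPKM in the rescued strains. By 48 h it had 85.0 and 68.7 FPKM in sta6 against 18.9, 10.7 and 8.99 FPKM in the rescued strains. The log2 difference was -3.27 at 4 h (limma adjusted p = 0.00108) and 2.55 at 48 h (0.0839, not called). It changed by 5.82 ± 0.513 (SE) with a limma adjusted p of 0.000367. At 0.5 h the groups overlapped.

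Cre02.g081050.t1.1 and Cre03.g180750.t1.1, higher in sta6 at 4 h, differed less from the rescued strains at 48 h. For Cre02.g081050.t1.1, sta6 had 364 and 207 FPKM at 48 h, against 218, 227 and 156 FPKM in the rescued strains, and the groups overlapped. The log2 difference changed by -3.44 ± 0.415 (SE) from 4 h to 48 h, with a limma adjusted p of 0.00263. For Cre03.g180750.t1.1, sta6 had 340 and 206 FPKM at 48 h, against 152, 151 and 86.8 FPKM in the rescued strains. Both sta6 libraries still lay above all rescued strains, with a log2 difference of 1.07 (limma adjusted p = 0.3157). The change from 4 h to 48 h was -3.26 ± 0.474 (SE) with a limma adjusted p of 0.00584. At 0.5 h both sta6 libraries also lay above all rescued strains, with a log2 difference of 4.24 (limma adjusted p = 0.02775). In both genes the rescued strains were higher at 48 h than at 4 h, and sta6 was lower at 48 h than at 4 h.

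**Figure D4:**
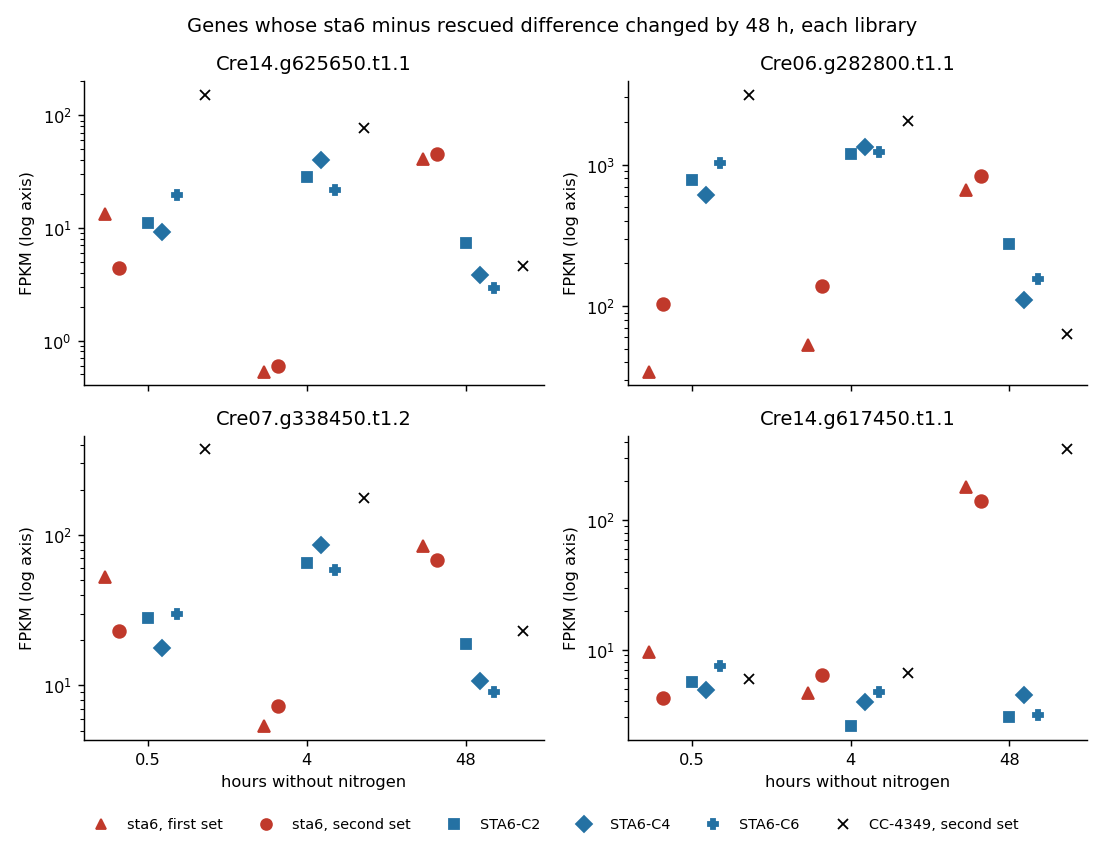
FPKM on a log axis at 0.5, 4 and 48 h, 1 point per library, for 4 genes whose difference between sta6 and the rescued strains changed by 48 h. In Cre14.g625650.t1.1, Cre06.g282800.t1.1 and Cre07.g338450.t1.2 both sta6 libraries are below all rescued strains at 4 h and above them at 48 h, and in Cre14.g617450.t1.1 the groups part at 48 h.

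The genes Cre14.g617450.t1.1 and Cre14.g617400.t1.1 were the leading higher genes at 48 h. Cre14.g617450.t1.1 had 4.65 and 6.36 FPKM in sta6 at 4 h against 2.56, 3.94 and 4.68 FPKM in the rescued strains, and these groups overlapped. At 48 h it had 179 and 142 FPKM in sta6 against 3.04, 4.44 and 3.10 FPKM in the rescued strains, a log2 difference of 5.16 (limma adjusted p = 0.00376). Second-set CC-4349 had 352 FPKM at 48 h, far above the 3 rescued strains. First-set CC-4349, whose scale per gene may differ, had 109 FPKM at 48 h. First-set CC-4349 was already at 109 FPKM at 0 h and 138 FPKM at 4 h, while second-set CC-4349 had 6.63 FPKM at 4 h. Cre14.g617400.t1.1 had 112 and 89.2 FPKM in sta6 at 48 h against 4.66, 5.49 and 3.05 FPKM in the rescued strains, with 246 FPKM in second-set CC-4349. At 4 h it had 5.26 and 7.65 FPKM in sta6 against 2.87, 2.11 and 3.50 FPKM in the rescued strains, a log2 difference of 0.96 (adjusted p by limma = 0.0463). The changes of the log2 difference from 4 h were 4.69 and 3.29, with adjusted p of 0.000367 and 0.00396.

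Cre12.g555700.t1.2 was the lower gene named at 48 h beside Cre03.g188250.t1.1. It had 0.0874 FPKM (6 reads) and 0.173 FPKM (6 reads) in sta6 at 48 h, against 28.6, 71.2 and 108 FPKM in the rescued strains. Its log2 difference was -5.77 with a limma adjusted p of 0.0420. Second-set sta6 alone gave -5.71, which was not called. At 48 h second-set CC-4349 had 1.85 FPKM (54 reads), below every rescued strain. First-set CC-4349, whose scale per gene may differ, had 0.490 FPKM at 48 h. Earlier, first-set CC-4349 had 37.3, 26.4 and 37.7 FPKM at 8, 12 and 24 h.

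**Figure D5:**
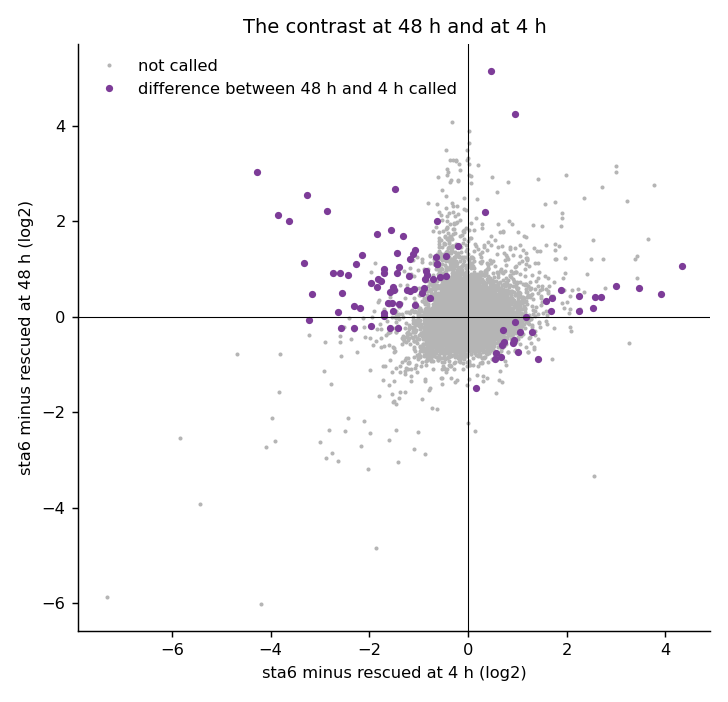
Each point is a gene, with sta6 minus rescued (log2 of FPKM + 1) at 48 h on the vertical axis and at 4 h on the horizontal axis. The 98 genes whose difference changed between 48 h and 4 h are shown in purple, and 61 of them lie at the upper left, below the rescued mean at 4 h and above it at 48 h.

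Between 0.5 h and 4 h the difference changed in 86 genes (0.601% of those tested), 36 positive and 50 negative for 0.5 h minus 4 h. Of these, 22 had been called higher and 17 lower at 4 h. The 0.5 h and 4 h libraries also chose the 22 genes. As a description only, the median change of the 22 genes from 4 h to 0.5 h was -1.67 in sta6 and 0.04 in the rescued strains. The count was 249 without first-set sta6 and 7234 without second-set sta6. It was 0 without STA6-C2, STA6-C4 or STA6-C6, with 1385 to 1951 genes at an unadjusted p below 0.05 by limma.

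The course of the 4 h genes in CC-4349 was read in the second set, from libraries that did not choose them. From 0.5 h to 48 h the median log2 change was 0.99 in the 539 genes higher in sta6, -0.75 in the 410 genes lower in sta6 and 0.13 over all genes tested. It was above 1 in 268 of the higher genes (49.7%, beside 13.0% of all genes tested). It was below -1 in 189 of the lower genes (46.1%, beside 8.82% of all). In this set, with 1 library per time, most of this change came after 4 h. From 4 h to 48 h the medians were 0.76 and -0.77, and from 0.5 h to 4 h they were 0.18 and -0.10.

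The rescued strains moved in the same directions between 0.5 h and 48 h. The median change of the higher genes was 0.63 for STA6-C2, 0.68 for STA6-C4 and 0.83 for STA6-C6, with -0.07 to -0.01 over all genes tested. The median change of the lower genes was -0.53 for STA6-C2, -0.62 for STA6-C4 and -0.44 for STA6-C6. In second-set CC-4349 77.6% of the higher genes were above their 0.5 h level at 48 h, beside 57.3% of all genes tested, and 75.6% of the lower genes were below it, beside 42.3% of all. In first-set CC-4349 the median change from 0 h to 48 h was 1.14 for the higher genes and -0.52 for the lower genes, beside 0.61 over all genes tested. From 0 h to 4 h it was 0.67 and -0.55, beside 0.66 over all genes tested. Counted from 0 h, the lower genes in that set thus had this median change by 4 h, unlike in the second set from 0.5 h.

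Gene order was used to look for called neighbours. Of 17301 IDs, 12666 matched a locus tag of the v5.5 assembly, which gave the gene order. Among called genes with a tested neighbour, 50 of 390 higher genes (12.8%) had a neighbour called higher, beside 6.24% of all genes. Likewise 35 of 306 lower genes (11.4%) had a neighbour called lower, beside 4.91% of all genes. The files do not state whether counting used the strand, so reads of overlapping neighbours may not be told apart.

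The longest runs held 3 genes. The first of them in genome order was Cre01.g036950.t1.1, Cre01.g037000.t1.2 and Cre01.g037050.t1.1, chosen after their values were seen. Cre01.g036950.t1.1 had 57.7 and 55.9 FPKM in sta6 against 3.85, 3.46 and 5.65 FPKM in the rescued strains, a log2 difference of 3.46 (limma adjusted p = 0.000969). Cre01.g037000.t1.2 had 18.5 and 11.7 FPKM in sta6 against 2.95, 5.49 and 4.49 FPKM in the rescued strains. Cre01.g037050.t1.1 had 40.7 and 34.2 FPKM in sta6 against 15.9, 14.7 and 18.4 FPKM in the rescued strains. The groups did not overlap in any of the 3 genes, and the sizes differed, with log2 differences of 1.60 (adjusted p = 0.0217) and 1.15 (0.0101) for Cre01.g037000.t1.2 and Cre01.g037050.t1.1. At 48 h the log2 differences of the 3 genes were 0.59, 0.04 and 0.18, and none was called by limma.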

How the data were processed

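RNA sequencing of 31 samples was used, 16 in a first and 15 in a second library set; the set was read from the code in the titles. The deposited values were taken as FPKM from the values, since no header names the unit; RPKM cannot be told apart. Per the submitters' processing notes Bowtie was used. The version, build, annotation, read counter and strand setting were not given in the sources used here. First-set samples have repeat columns, which were averaged as FPKM. The members and lists were chosen with earlier results of these data known.

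Tests used limma 3.58.1 in R 4.3.3 (trend, robust) on log2(FPKM + 1) for genes reaching 1 FPKM in 2 or more of the 5 libraries, with Benjamini-Hochberg adjustment at 0.05 and 3 residual degrees of freedom at 4 h. The pseudocount makes fold changes of low genes too small. Contrasts of times used 1 fit over 15 libraries, with a mean for each group and time and no term for strain or set. Whole reads were recovered from the steps of low values for 16402 of 17301 genes (94.8%), and 100% of the values of these genes came out whole within 0.1 read; first-set CC-4349 was not included. limma's voom on these reads, an alternative chosen after seeing the data, called 843 higher and 574 lower genes at 4 h. The fit was tested on simulated data. Other steps used Python 3.11.15.

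Named genes were to have an annotation. The reference table gave 0 symbols beyond locus tags, so gene lists by name could not be matched. For each time, up to 2 higher and up to 2 lower genes were named instead. They had the widest gaps among called genes at or above the median level. At 0.5 h too few higher genes met this to reach the full number. Others are said to be chosen after their values were seen. The 3 shared times were 0.5, 4 and 48 h.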

Additional observations from a re-analysis of the deposited data

Results flagged for a closer look

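The difference between sta6 and the rescued strains was tested for a change with time, and 98 genes changed between 48 h and 4 h and 86 between 0.5 h and 4 h (limma). Of the genes named above, the following changes passed the test, each given as log2 difference at the other time minus that at 4 h. At 48 h it was -3.26 for Cre03.g180750.t1.1, -3.44 for Cre02.g081050.t1.1 and -2.87 for Cre01.g036950.t1.1. It was 4.69 for Cre14.g617450.t1.1, 3.29 for Cre14.g617400.t1.1, 7.32 for Cre14.g625650.t1.1, 5.99 for Cre06.g282800.t1.1 and 5.82 for Cre07.g338450.t1.2.

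At 0.5 h it was 3.64 for Cre14.g625650.t1.1 and 3.75 for Cre07.g338450.t1.2. Without first-set sta6 at any time these were 2.92 (limma adjusted p = 0.0821) and 2.99 (0.0428). It was -5.17 for Cre01.g009400.t1.1, chosen after its values were seen. That gene had 0.0796 FPKM (13 reads) in first-set sta6 and 14.5 FPKM in second-set sta6 at 0.5 h, against 107, 97.1 and 130 FPKM in rescued strains. At 4 h it had 169 and 129 FPKM in sta6, against 88.1, 143 and 111 FPKM in the rescued strains. First-set sta6 stood apart at 0.5 h; with second-set sta6 alone against the rescued strains, the log2 difference at 0.5 h was -2.84 (limma adjusted p = 0.00363), beside -4.77 (0.152) with both. The change of this gene without first-set sta6 was -3.05 (0.00661).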

How the results depend on the processing

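The directions of the 4 named genes at 4 h held under all alternatives, and their calls too, except Cre04.g223100.t1.1 without first-set sta6. Among genes called higher at 4 h (539), 1 fit over 15 libraries gave 155, the repeat column TS1 alone 283 and voom 843; leaving out 1 library gave 84 to 856. Among genes called lower (410), 1 fit over 15 libraries gave 199 and TS1 alone 265; leaving out 1 library gave 88 to 899. Genes without overlap at 4 h numbered up to 5466 higher (from 3443) and 5309 lower (from 2842) when 1 library was left out; the lowest such counts were 4015 and 3312. At 0.5 h (5 calls), TS1 alone, the mean of log2 values and limma with no trend each gave 3, a pseudocount of 0.1 gave 1, and no filter and voom gave 0 (3460 and 3681 at an unadjusted p below 0.05); leaving out 1 library gave 0 to 8709. At 48 h (23 calls), equal medians gave 39, no filter 7 and a pseudocount of 5 gave 11; leaving out 1 library gave 0 to 2019. For the change between 48 h and 4 h (98), leaving out 1 library gave 16 to 2287. For the change between 0.5 h and 4 h (86), equal medians gave 57 and leaving out 1 library gave 0 to 7234. The cause of these shifts was not tested; leaving out a library also leaves fewer samples. No pairing of sta6 with rescued samples was possible. Replicate numbers name different strains and sets, and the groups have 2 and 3 samples. Each strain and set recurs at 0.5, 4 and 48 h. The fit for changes with time did not use this and took the libraries as independent samples. The alternatives for the changes with time, and voom, were chosen after seeing the data.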
